A study of Homo sapiens with 12 samples.

Results

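The nuclear-encoded subunits of the mitochondrial respiratory chain were followed in a co-culture of Jurkat and Raji cells under checkpoint antibodies. The members were every gene symbol on a list of complex II, III and IV subunits, or of the NDUFA, NDUFB, NDUFC, NDUFS and NDUFV series, with a mean raw count of at least 50 over 12 libraries. This rule gave 60 genes of the 55782 in the count table, 37 of complex I, 4 of complex II, 9 of complex III and 10 of complex IV. No matching symbol fell under the count limit, and all 60 also passed the filter for testing. NDUFA4 stands with complex I by its name, although it is now placed with complex IV.

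Jurkat is a human T cell leukaemia line, here labelled as carrying LAG3 and PD1, and Raji is a human Burkitt lymphoma B cell line, labelled as carrying PDL1. T cells use LAG3 and PD1 as inhibitory receptors. The Jurkat cells met antibody and then, for 24 h, Raji cells loaded with SED, the superantigen staphylococcal enterotoxin D, at 100 ng/ml. The arms were anti-PD1 (MK3475) plus anti-LAG3 (MK4280), called the combination here, anti-LAG3 plus isotype, anti-PD1 plus isotype, and isotype control antibody alone. All 4 arms, the isotype arm included, held both engineered lines and the superantigen. Each arm had 1 library at each of 0.01, 0.1 and 1 µg/ml of each antibody, made from pooled wells. No condition had a replicate, so the 3 doses stood in as an arm's libraries, and p-values reflect how these libraries scatter, which can be technical. RNA of both lines was read together, so fewer cells of a line and less RNA per cell cannot be told apart.

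The respiratory chain sits in the inner mitochondrial membrane. Complex I takes electrons from NADH and complex II from succinate, complex III passes them to cytochrome c, and complex IV hands them to oxygen. Complexes I, III and IV pump protons, and ATP synthase uses the gradient. Most subunits are encoded in the nucleus and imported, whereas a core set of complexes I, III and IV is encoded in mitochondrial DNA. T cell activation is known to raise demand on both respiration and glycolysis.

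Library depth was 23593973 to 36581754 counts, the highest in isotype at 1 µg/ml. All 24 Jurkat T and 28 Raji B marker genes had counts in each library, with summed levels of 1692 to 2081 and 8663 to 9563 CPM (counts scaled to the library total). The mean log2 level of T markers minus that of B markers was -2.16 to -2.06 in the combination libraries, -2.01 to -1.91 with anti-LAG3, -2.22 to -2.02 with anti-PD1 and -2.26 to -2.17 with isotype. It was higher in all 3 anti-LAG3 libraries, and also in all 3 combination libraries, than in any library of the isotype arm. CD69, an early activation antigen used as a check on the antibodies, had 13.6, 27.3 and 51.6 CPM at rising dose of the combination, against 12.3, 13.7 and 11.0 CPM in the isotype series.

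The members were well expressed and varied little. Their mean counts ran from 97.6 for NDUFA7 to 9374 for COX4I1, with a median of 2442.5. The highest of the 12 CPM values of a member was 1.24 times the lowest in the median, and the ratio was under 1.3 for 49 of 60. It was smallest for NDUFA10, at 1.087, and largest for NDUFA7, at 1.564, where single libraries held few counts. Next came NDUFB2 at 1.503 and COX7B at 1.475.

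Between genes, levels are given per length, as mean CPM per kilobase of exon. In complex I the highest was NDUFS5, an accessory subunit, at 267.5 CPM per kb, and the lowest NDUFA7 at 2.49. In complex II the highest was SDHB, the iron-sulfur subunit, at 61.7 CPM per kb, and the lowest SDHC, a membrane anchor, at 3.63. In complex III UQCRH, the hinge subunit, was highest at 166.2 CPM per kb and UQCRB lowest at 22.3. In complex IV COX8A was highest at 232.7 CPM per kb and COX7B lowest at 25.2. For 57 of the 60 the deposited length equals the union of annotated exons, so annotated exons that are rarely used lower a gene's value on this scale.

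**Figure D1:**
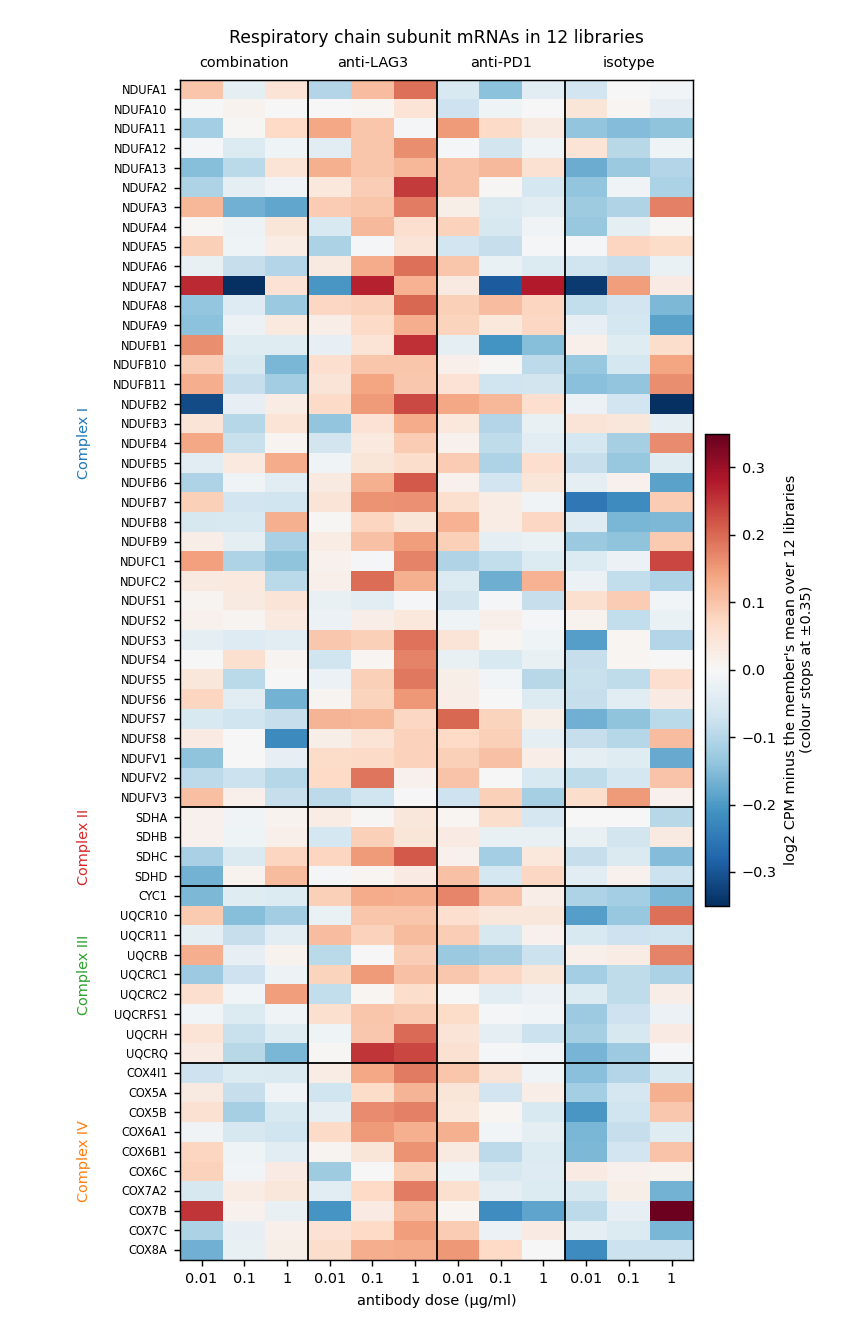
Level of each of the 60 members (rows, grouped by complex) in each of the 12 libraries (columns, by arm and antibody dose), as log2 CPM minus the member's own mean over the 12 libraries. Most members are above their mean in the anti-LAG3 libraries at 0.1 and 1 µg/ml, and the columns of the combination at 0.01 µg/ml and isotype at 1 µg/ml resemble each other, with COX7B high and NDUFB2 low in both.

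The combination library at 0.01 µg/ml and the isotype library at 1 µg/ml, which share neither antibody nor dose, had nearly the same pattern over the members. The deviations of the members from their own means had a Spearman correlation of 0.84 between these libraries over 60 members, the highest of all 66 pairs of libraries. Over all 15535 genes tested the correlation was 0.246, the third highest of the 66. In both libraries COX7B was high, at 90.1 CPM in the combination library and 96.1 CPM in the isotype library, against 65.2 to 82.0 CPM in the other 10. NDUFB2 was low in both, at 84.7 CPM in the combination library and 82.2 CPM in the isotype library, against 100 to 124 CPM elsewhere. The deviation had the same sign in both libraries for 51 of 60 members, and this agreement was not counted over all genes. The correlations describe points that share 2 libraries and differ in depth, length and base composition, and the source of the likeness was not tested. The counts of called members are therefore also given without them.

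**Figure D2:**
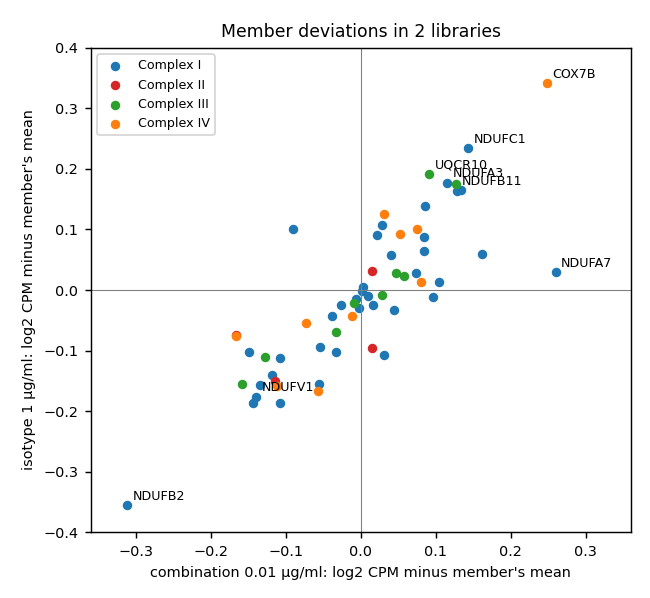
Deviation of each of the 60 members from its own mean over the 12 libraries (log2 CPM) in the combination library at 0.01 µg/ml (horizontal) and the isotype library at 1 µg/ml (vertical), coloured by complex. The points run along a rising diagonal, with NDUFB2 at the low end and COX7B at the high end.

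The anti-LAG3 arm had higher levels of subunits of all 4 complexes than the isotype arm. Summed over the 60 members, the level was 6791, 7164 and 7367 CPM at rising dose of anti-LAG3, against 6406, 6516 and 6699 CPM with isotype. The arm means were 7107 ± 292 CPM with anti-LAG3 and 6540 ± 148 CPM with isotype (SD, n = 3 each), and the arms did not overlap on this scale. Scaled by TMM, as in the tests, the sums were 6725, 7203 and 7389 with anti-LAG3, against 6325, 6421 and 6843 with isotype, so anti-LAG3 at 0.01 µg/ml lay below isotype at 1 µg/ml and the arms overlapped. In arm means over the doses 20 members rose and 0 fell with anti-LAG3 against isotype, in edgeR's quasi-likelihood test at an adjusted p under 0.05. Of all 15535 genes, 4.88% rose and 5.16% fell in this comparison. The median member difference was 0.124 on the log2 scale, against -0.00149 over all genes, and 54 of 60 differences were positive. In CPM all 3 anti-LAG3 libraries lay above all 3 isotype libraries for 25 members and below them for 1, where 15.4% and 12.8% of all genes did so. By complex, 10 of 37 members of complex I, 1 of 4 of complex II, 5 of 9 of complex III and 4 of 10 of complex IV rose.

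In complex III the rise took in CYC1, the cytochrome c1 that passes electrons to cytochrome c. Its level was 295, 304 and 304 CPM at rising dose of anti-LAG3, against 258, 256 and 249 CPM with isotype. No anti-LAG3 library overlapped an isotype one, and the difference of arm means was 0.24 ± 0.047 log2 units (SE, adjusted p = 0.00264, edgeR). UQCRC1, a core protein of the complex, had 237, 249 and 241 CPM with anti-LAG3, against 207, 211 and 208 CPM with isotype. All isotype values of UQCRC1 lay below all anti-LAG3 values, and the arm difference was 0.22 ± 0.043 (adjusted p = 0.00307, edgeR). UQCRQ and UQCR11, small accessory subunits, rose by 0.27 and 0.17 log2 units, and UQCRFS1, the Rieske iron-sulfur protein, by 0.16. In the annotation UQCRQ shares 20.79% of its exon length with a gene on the other strand. UQCRB, which is also an accessory subunit, had one of the 3 most negative differences of all members, at -0.07 (adjusted p = 0.408).

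In complex IV COX4I1, a nuclear subunit linked to the control of the enzyme by ATP, had 345, 372 and 385 CPM at rising dose of anti-LAG3, against 307, 316 and 327 CPM with isotype. The 3 anti-LAG3 libraries all lay above the isotype libraries, and the arm difference was 0.22 ± 0.048 (adjusted p = 0.00629, edgeR). COX8A, whose deposited length is the shortest of the 60, had 123, 129 and 129 CPM with anti-LAG3, against 101, 112 and 112 CPM with isotype. It differed by 0.23 (adjusted p = 0.0106, edgeR), and 34.52% of its exon length is shared with another gene on the same strand. COX6A1 and COX7C rose by 0.21 and 0.17. COX7B had a difference of -0.10, with a standard error of 0.16.

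In complex I the members that rose were core and accessory subunits alike. NDUFS7, a core subunit that carries an iron-sulfur cluster, had 75.2, 75.1 and 72.9 CPM with anti-LAG3, against 61.7, 62.9 and 64.9 CPM with isotype. In the annotation 49.12% of the exon length of NDUFS7 is shared with genes on the other strand, and the strand setting of the counting is not known. NDUFA8, an accessory subunit, had 60.8, 61.0 and 66.3 CPM with anti-LAG3, against 54.4, 55.1 and 51.8 CPM with isotype. Neither gene's arms overlapped, and the differences were 0.24 for NDUFS7 and 0.23 for NDUFA8 (adjusted p = 0.00705 for each). The core subunits NDUFS3, at 0.22, and NDUFV1, which binds NADH and the flavin, at 0.16, also rose. So did the accessory subunits NDUFA13 at 0.25, NDUFA11 and NDUFA2 at 0.22, NDUFB6 at 0.20, NDUFA6 at 0.18 and NDUFA9 at 0.17. NDUFS3 and NDUFA13 share 22.37% and 20.97% of exon length with other genes, whereas NDUFA8 shares none. NDUFB2 had the largest positive difference, 0.30, but a wide error (adjusted p = 0.11). NDUFV3 had the most negative, -0.12 (adjusted p = 0.288). In complex II only SDHC was called, with 54.0, 56.8 and 59.5 CPM at rising dose of anti-LAG3, against 48.4, 49.4 and 46.1 CPM with isotype, a difference of 0.25 (adjusted p = 0.00857).

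The count of calls moved with single libraries. Here and below, most counts from alternative fits stand without the share of all genes called in the same fit. Whether a change in such a count is particular to the members cannot be read from it. When a library was left out it fell to 4 (the 0.1 µg/ml anti-LAG3 library), 5 (anti-LAG3, 1 µg/ml), 5 (isotype, 0.1 µg/ml) and 10 (isotype, 0.01 µg/ml). With both libraries of like pattern left out it was 32. CYC1 and UQCRC1 were called in each of the 12 fits with 1 library left out, but neither was called with a GC content trend removed, where their differences were 0.12 and 0.13. The marker difference of T over B genes was higher in each anti-LAG3 and each combination library than in any isotype library. With this marker difference as a covariate no member was called, nor was any of the 15535 genes, while the median member difference was 0.18. The median was 0.0753 with a gene length trend removed. Cell balance and arm cannot be told apart here. Counts were 10 with a gene length trend removed and 12 with a GC content trend removed.

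**Figure D3:**
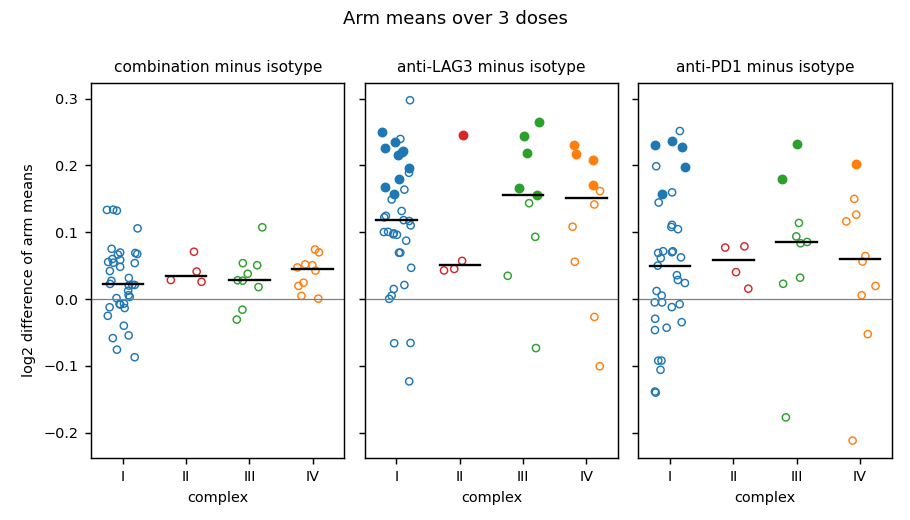
Difference of arm means over 3 doses (log2) for each of the 60 members, by complex, in the combination, the anti-LAG3 and the anti-PD1 arm against isotype. Filled points passed an adjusted p under 0.05, black lines are medians per complex, and filled points occur with anti-LAG3 (20) and anti-PD1 (8) but not with the combination.

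With anti-PD1 alone fewer members rose. Summed over the members, the level was 7014, 6728 and 6690 CPM at rising dose of anti-PD1, against 6406, 6516 and 6699 CPM with isotype, so that the arms overlapped at the top dose. In arm means 8 members rose and 0 fell, where 2.09% of all genes rose and 1.73% fell. The 8 were CYC1, NDUFS7, UQCRC1, NDUFA8, NDUFA11, NDUFA13, COX8A and NDUFV1, all of which had also risen with anti-LAG3, although both comparisons use the same isotype libraries. The median member difference was 0.0619, with 44 of 60 positive. With the 0.01 µg/ml anti-PD1 library left out the median was 0.00718, with 32 of 60 positive. It was 0.0295 with the 0.01 µg/ml isotype library left out, 0.0415 with the 0.1 µg/ml isotype library left out and 0.0255 with a gene length trend removed. It was 0.1 with the 1 µg/ml isotype library left out, 0.102 with the 1 µg/ml anti-PD1 library left out and 0.0973 with both libraries of like pattern left out. In CPM all 3 anti-PD1 libraries lay above all 3 isotype libraries for 15 members and below them for 4, where 11.4% and 10.4% of all genes did so. Complex II had no call.

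CYC1 had 313, 298 and 283 CPM at rising dose of anti-PD1, all above the isotype libraries, at 0.23 ± 0.047 (adjusted p = 0.0108, edgeR). Its level stood highest at the lowest dose. NDUFS7 had 79.6, 73.1 and 70.3 CPM in the same order, likewise highest at the lowest dose, with a difference of 0.24 (adjusted p = 0.0191). The other 6 rose by 0.16 for NDUFV1, 0.18 for UQCRC1, 0.20 for NDUFA8 and COX8A, and 0.23 for NDUFA13 and NDUFA11. COX7B, UQCRB and NDUFC1 had the most negative differences, at -0.21, -0.18 and -0.14, and none was called.

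The anti-PD1 count was 0 with the 0.01 µg/ml anti-PD1 library left out and 0 with the 0.1 µg/ml isotype library left out. It was 1 (isotype, 0.01 µg/ml), 1 (anti-PD1, 0.1 µg/ml), 3 (combination, 0.1 µg/ml) and 5 (anti-LAG3, 1 µg/ml) with another library left out. With both libraries of like pattern left out it was 17, of which 16 rose and 1 fell. It was 0 with a GC content trend removed and 4 with the length trend removed or with the marker covariate.

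No member was called between the combination and isotype in arm means. Its summed level was 6719, 6600 and 6703 CPM at rising dose, with a mean of 6674 ± 64.6 CPM, against 6540 ± 148 CPM with isotype (SD, n = 3 each). In edgeR 0 members rose and 0 fell, and at an unadjusted p under 0.05, 3 rose and 0 fell, where 3.75% of all genes rose and 2.93% fell. DESeq2 also called 0. All 3 combination libraries lay above all 3 isotype libraries for 3 members and below them for 0, where 4.36% and 3.81% of all genes did so. Of all genes, 0.00644% were called. The median member difference was 0.0284. The highest were NDUFB5 and NDUFA11 at 0.13 and NDUFB8 at 0.13, and the lowest NDUFC1 at -0.09, NDUFV2 at -0.08 and NDUFA3 at -0.06. Leaving out both libraries of like pattern again gave 0 calls.

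Set directly against anti-LAG3, the combination was lower for some of the same members. Against anti-LAG3 alone 0 members rose and 5 fell in arm means, where 2.61% of all genes rose and 3.14% fell. They were NDUFA8 at -0.22, CYC1 and NDUFA6 at -0.19, UQCRC1 at -0.18 and COX4I1 at -0.17 (adjusted p = 0.0151 for NDUFA8 and 0.0441 for NDUFA6). CYC1 had 249, 270 and 269 CPM at rising dose of the combination, below each anti-LAG3 value above. UQCRC1 had 206, 214 and 222 CPM in the combination, also below each anti-LAG3 value. The count was 0 with the 0.1 µg/ml combination library left out, 0 with the 1 µg/ml anti-LAG3 library left out and 0 with the marker covariate. It was 1 (anti-LAG3, 0.1 µg/ml), 2 (combination, 1 µg/ml), 3 (anti-PD1, 0.1 µg/ml), 3 (isotype, 0.1 µg/ml), 8 (isotype, 0.01 µg/ml), 9 (anti-PD1, 0.01 µg/ml) and 17 (isotype, 1 µg/ml) with another library left out. With both libraries of like pattern left out it was 19. The other large estimates, NDUFB2 at -0.25 and UQCRQ at -0.24 downward, and COX7B at 0.11 and UQCRC2 and NDUFV3 at 0.07 upward, were not called.

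Against anti-PD1 alone no member was called, where 0.354% of all genes were, and at an unadjusted p under 0.05 the combination was higher for 2 members and lower for 8, where 6.77% of all genes were higher and 7.24% lower. DESeq2 called 1 member lower, and edgeR called 2 lower with the 1 µg/ml isotype library left out and 1 lower with both libraries of like pattern left out. The lowest were NDUFB2 at -0.20, NDUFA8 at -0.19 and CYC1 at -0.18, and the highest COX7B at 0.22, NDUFB1 at 0.16 and UQCRB at 0.15.

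In the dose series of the combination, 1 member rose and 12 fell per 10-fold dose relative to the isotype series, where 1.83% of all genes rose and 2.8% fell. The slope is a log2 change per 10-fold antibody dose, minus that of the isotype series. Of the 12, 8 belong to complex I, 1 to complex III and 3 to complex IV. The median over members was -0.056, against 0.00614 over all genes. It was -0.0186 with the 0.01 µg/ml combination library left out, -0.0188 with the 1 µg/ml isotype library left out and -0.0953 with the 1 µg/ml combination library left out. With both libraries of like pattern left out its sign turned, at 0.00501 with 31 of 60 positive. Among the members the slope difference had a Spearman correlation of 0.353 with gene length, against 0.0825 over 13686 genes. The median was -0.105 for the 30 shorter and -0.0358 for the 30 longer members. With a gene length trend removed the median over members was -0.0447, and the source of the relation was not tested. Complex II had 0 calls and a positive median of 0.0728.

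COX7B, a small subunit of complex IV, had the most negative slope. Its level was 90.1, 76.6 and 74.5 CPM at rising dose of the combination, against 71.1, 74.2 and 96.1 CPM in the isotype series. The highest value of each series is the library of like pattern named above. The slope difference was -0.38 ± 0.069 (adjusted p = 0.00317, edgeR). UQCR10, a small subunit of complex III, had 79.9, 67.7 and 69.0 CPM in the combination, against 65.6, 68.4 and 85.7 CPM with isotype. Here too the single high library of each series sat at its opposite end, and the slope difference was -0.32 (adjusted p = 0.00236). NDUFB10, an accessory subunit of complex I, had 128, 116 and 108 CPM in the combination, against 110, 115 and 133 CPM with isotype. Both NDUFB10 series ran in order of dose, in opposite directions, with a slope difference of -0.28 (adjusted p = 8.49e-04).

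The other accessory subunits of complex I that fell were NDUFA3 at -0.32, NDUFC1 at -0.31, NDUFB11 at -0.30, NDUFB7 at -0.27, NDUFB9 at -0.20 and NDUFS6 at -0.19. NDUFS8, a core subunit with iron-sulfur clusters, fell at -0.24. In complex IV COX5B and COX6B1 fell at -0.22 and -0.20.

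NDUFB2, an accessory subunit of complex I, was the 1 member that rose. It had 84.7, 103 and 107 CPM at rising dose of the combination, against 104, 100 and 82.2 CPM with isotype. The slope difference was 0.32 ± 0.053 (adjusted p = 4.11e-04, edgeR). In the annotation 35.91% of the exon length of NDUFB2 is shared with other genes, mostly on the other strand, and the strand setting of the counting is not known. Its antisense gene NDUFB2-AS1 had a slope difference of -0.28 (adjusted p = 0.574). SDHD and NDUFA9 had the next largest positive slopes, 0.14 and 0.15, and were not called.

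**Figure D4:**
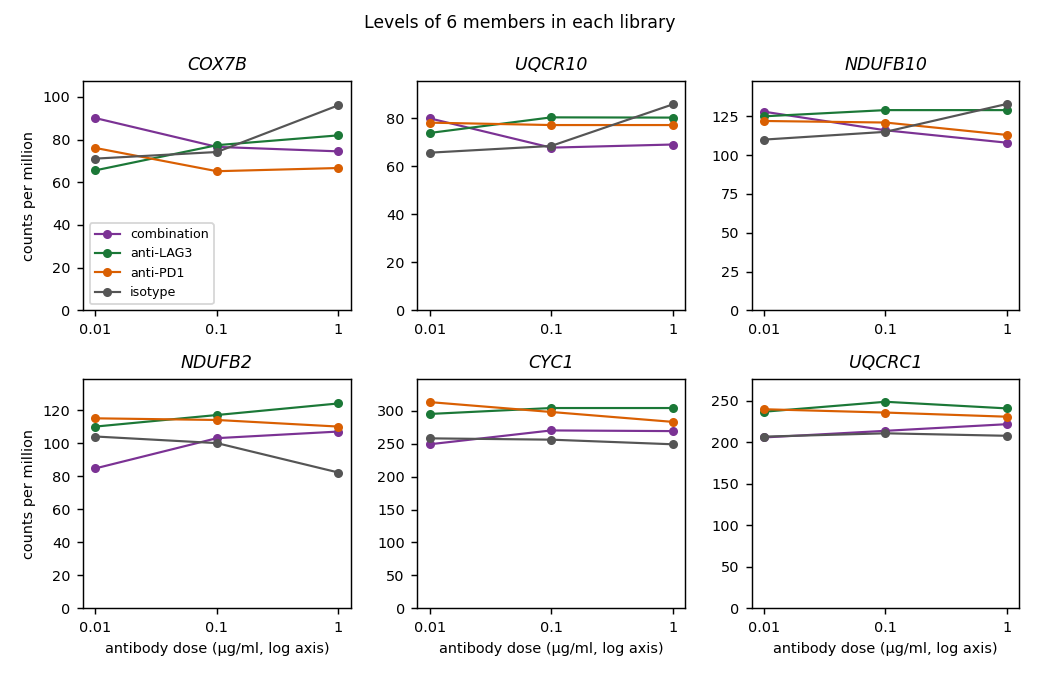
Level in CPM of COX7B, UQCR10, NDUFB10, NDUFB2, CYC1 and UQCRC1 in each library, against antibody dose on a log axis, with 1 line per arm. The combination and isotype lines of the first 4 cross, and the anti-LAG3 and anti-PD1 lines of CYC1 and UQCRC1 lie above the isotype line at each dose.

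By itself, without subtracting isotype, the combination series gave a different count. In it 2 members rose, NDUFB2 at 0.18 (adjusted p = 0.0047) and SDHD at 0.15 (adjusted p = 0.031), and 0 fell, where 2.12% of all genes rose and 2.16% fell. SDHD, a membrane anchor of complex II, had 83.3, 94.3 and 101 CPM at rising dose of the combination. At an unadjusted p under 0.05, 9 members rose and 9 fell, where 7.83% of all genes rose and 7.84% fell. In order of dose, 14 of 60 members ascended in the combination series and 16 descended, where 18.8% and 23.9% of all genes did so. The 12 members that fell relative to isotype had own slopes of -0.142 to -0.0447 in the combination series and 0.0788 to 0.245 in the isotype series.

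In the isotype series, which holds no test antibody, 7 members rose with dose and 0 fell, where 0.74% of all genes rose and 0.116% fell. They were COX7B at 0.25, UQCR10 at 0.22, NDUFB7 at 0.20, NDUFB11 at 0.18, COX5B at 0.17, NDUFB10 at 0.16 and COX6B1 at 0.15. All 7 were among the 12 that fell in the combination relative to isotype, which shares the isotype libraries. NDUFB2 had the most negative isotype slope, -0.14 (adjusted p = 0.0626), followed by NDUFB6 and NDUFA9 at -0.06 and -0.05. Levels ascended with dose for 21 of 60 members and descended for 10, where 14.9% and 26.6% of all genes did so. The count was 4 with the 0.01 µg/ml isotype library left out, 0 with the 1 µg/ml isotype library left out, and 11 (10 up, 1 down) with any 1 of the 3 anti-PD1 libraries left out.

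The combination slope count rested on the libraries of like pattern. It was 0 with the 0.01 µg/ml combination library left out, 0 with the 1 µg/ml isotype library left out, and 0 with both left out, when 29 of all genes were called. It was 7 with the 1 µg/ml combination library left out and 6 in DESeq2. In the fits without both libraries each of those series holds 2 doses, so fewer libraries also set the count.

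**Figure D5:**
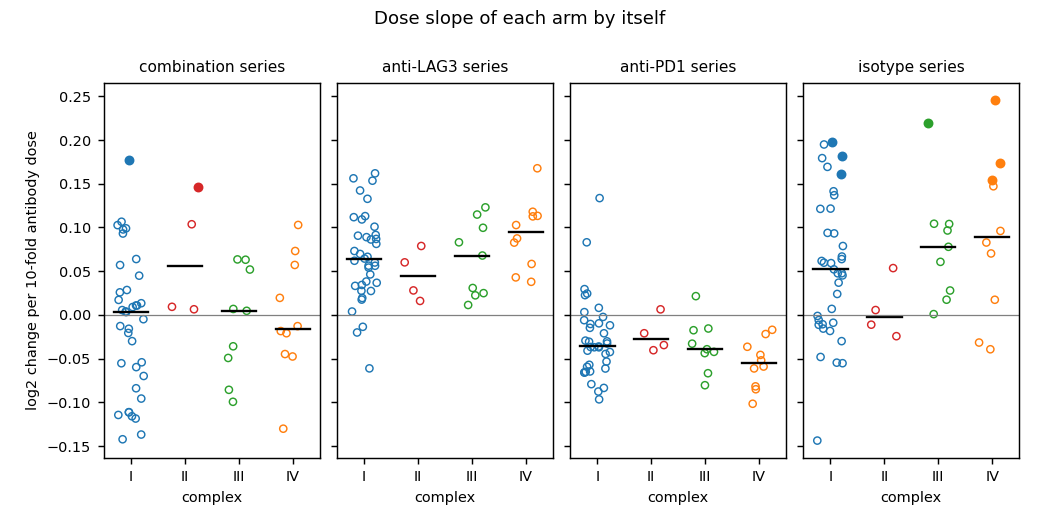
Dose slope of each of the 60 members (log2 change per 10-fold antibody dose) in the combination, anti-LAG3, anti-PD1 and isotype series, each by itself, by complex. Filled points passed an adjusted p under 0.05 and black lines are medians. Most slopes are above 0 in the anti-LAG3 and isotype series and below 0 in the anti-PD1 series.

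In the anti-LAG3 series 0 members rose and 0 fell relative to isotype in edgeR, where 0.0708% of all genes were called. At an unadjusted p under 0.05, 6 rose and 4 fell, where 4.07% of all genes rose and 3.92% fell, and DESeq2 called 0. With the marker covariate 2 rose and 2 fell, and 1 rose with the 0.01 or the 0.1 µg/ml anti-PD1 library left out. By itself the series sloped upward for 57 of 60 members, with a median of 0.0672 and 0 calls, where 0.18% of all genes were called. Levels stood in ascending order of dose for 38 of 60 members in this series and in descending order for 2, where 18.5% and 20.2% of all genes did so. NDUFB2 had the most positive slope relative to isotype, 0.24 (adjusted p = 0.0913), followed by NDUFB3 and NDUFB6 at 0.16. UQCR10 and NDUFB11 at -0.15 and NDUFV2 at -0.14 were the most negative.

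In the anti-PD1 series 0 members rose and 2 fell relative to isotype, where 0.0837% of all genes rose and 0.18% fell. They were COX7B at -0.35 (adjusted p = 0.0435) and NDUFB10 at -0.22 (adjusted p = 0.046). COX7B had 76.1, 65.2 and 66.7 CPM at rising dose of anti-PD1, and NDUFB10 had 122, 121 and 113 CPM. The range of neither series reached the isotype value at 1 µg/ml. Relative to isotype 51 of 60 members had a negative slope, and by itself the series also sloped downward for 51, with 0 calls, where 0.206% of all genes were called. Levels descended with dose for 22 of 60 members and ascended for 3, where 13.3% and 17.1% of all genes did so. The count was 0 with the 1 µg/ml isotype, the 1 µg/ml anti-PD1 or the 0.01 µg/ml anti-PD1 library left out, and 0 with both libraries of like pattern left out. It was 1 with any 1 of the 3 anti-LAG3 libraries left out, 4 (isotype, 0.01 µg/ml), 8 (anti-PD1, 0.1 µg/ml) and 17 with the marker covariate. NDUFB11 and NDUFB7 had the next most negative slopes, -0.25 and -0.24, and NDUFC2 at 0.10, NDUFB2 at 0.10 and NDUFB6 at 0.06 the most positive.

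Slopes were also compared between antibody series. The combination rose against anti-PD1 for NDUFB2 at 0.22 (adjusted p = 0.0481), where 0.341% of all genes rose and 0.303% fell. It fell against anti-LAG3 for NDUFS6 at -0.19 (adjusted p = 0.0452), where 0.322% of all genes rose and 0.444% fell. NDUFS6 had 123, 114 and 104 CPM at rising dose of the combination, against 118, 123 and 130 CPM with anti-LAG3, so these series ran apart with dose. Among members not called, slopes against anti-PD1 ran from NDUFA7 at -0.24, NDUFC1 at -0.16 and NDUFC2 at -0.14 to NDUFA11 at 0.17 and COX8A at 0.18. Against anti-LAG3 they ran from COX7B at -0.30, NDUFA7 at -0.27 and NDUFB1 at -0.25 to NDUFA13 at 0.10, SDHD at 0.12 and NDUFA11 at 0.16. Both calls were lost in DESeq2 and with the 0.01 µg/ml combination library left out, as also with most other single libraries left out.

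In the arm means of the single antibodies and of the combination against isotype, the mRNAs that mitochondrial DNA encodes had a median of the opposite sign to that of the nuclear members. With anti-LAG3 against isotype 0 of 13 rose and 3 fell in arm means, all 13 differences were negative, and the median was -0.43. MT-ND4, MT-ND5 and MT-ND6, subunits of complex I, fell by 0.51, 0.62 and 0.60 on the log2 scale. These 13 mRNAs took 3.15%, 3.17% and 2.46% of counts at rising dose of anti-LAG3, 2.98%, 3.27% and 3.36% with anti-PD1, and 3.71%, 3.68% and 4.09% with isotype. Both single-antibody arms therefore lay below isotype in this share and did not overlap it, while the combination, at 3.87%, 3.48% and 3.73%, did. With anti-PD1 no mitochondrially encoded mRNA was called, and the median was -0.277. With the combination none was called either, all 13 differences were negative, and the median was -0.0617, against 0.0284 for the members. In dose slopes the signs of the medians depended on the series. For the mitochondrially encoded mRNAs and the members in turn, they were -0.142 and -0.056 in the combination relative to isotype. They were 0.0954 and 0.0595 in the isotype series, and -0.00263 and -0.0889 with anti-PD1 relative to isotype. With anti-LAG3 relative to isotype the signs were opposite, at -0.265 and 0.0176.

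Other genes of the pathway were described from lists. Beside their counts stand the shares of all genes given above: with anti-LAG3 4.88% rose and 5.16% fell, with anti-PD1 2.09% rose and 1.73% fell, in the combination slope relative to isotype 1.83% rose and 2.8% fell, and in the isotype series 0.74% rose. Counts of 1 gene in a list of 14 or 18 are close to such a share. Of 18 ATP synthase subunits, 1 rose and 0 fell with anti-LAG3 in arm means, ATP5D at 0.18. In the combination slope relative to isotype 0 rose and 6 fell, USMG5 (-0.32), ATP5I (-0.38), ATP5E, ATP5L, C14orf2 and ATP5G2, and in the isotype series 4 rose. Of 49 assembly factors, 12 rose and 0 fell with anti-LAG3, and 5 rose and 0 fell with anti-PD1. SCO2, which helps insert copper into complex IV, rose by 0.31 with anti-LAG3 and 0.30 with anti-PD1. SDHAF1, an assembly factor of complex II, rose by 0.30 in each. Of 14 TCA cycle enzymes, 1 rose with anti-LAG3, IDH2 at 0.20, and 0 with anti-PD1. ETFB, a subunit of the electron carrier that feeds ubiquinone, rose in both, by 0.27 with anti-LAG3 and 0.18 with anti-PD1.

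Among 14 nuclear regulators of mitochondrial biogenesis, 0 rose and 2 fell with anti-LAG3, PPARGC1B at -0.34 and PPRC1 at -0.33. PPRC1 also fell with anti-PD1, at -0.30, whereas POLRMT, the mitochondrial RNA polymerase, rose by 0.19. ESRRA, an orphan receptor that acts on respiratory genes, rose in the combination slope relative to isotype at 0.39 and fell in the isotype series at -0.19. Of 21 glycolysis enzymes, 4 rose with anti-LAG3 and 3 with anti-PD1, PFKFB4 and PGAM1 in both. Cytosolic ribosomal protein genes, outside respiration, had counts like the members: 25 of 80 rose and 0 fell with anti-LAG3, with a median of 0.124. Of the 9 activation genes tested, 9 rose in the combination slope, 5 in that of anti-LAG3 and 3 in that of anti-PD1.

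Promoter sequences are shown for members that rose in the anti-LAG3 arm, COX4I1 and UQCRC1, and for the members with the most negative and the most positive combination slope, COX7B and NDUFB2. NRF1, ETS-family factors (GABP among them) and YY1 are known regulators of respiratory chain genes. Each sequence is a RefSeq window of build GRCh38.p14, 250 bases before to 50 after a gene start, read 5′ to 3′ on the gene's strand, and capitals mark a match to a motif on either strand. The motifs were ETS, CCGGAAG or its complement CTTCCGG, YY1, AAGATGGC or GCCATCTT, and the NRF1 consensus palindrome. COX4I1 lies at chr16:85799445-85799744 on the plus strand, UQCRC1 at chr3:48609597-48609896 on the minus strand, COX7B at chrX:77899218-77899517 and NDUFB2 at chr7:140696458-140696757, both on the plus strand.
COX4I1: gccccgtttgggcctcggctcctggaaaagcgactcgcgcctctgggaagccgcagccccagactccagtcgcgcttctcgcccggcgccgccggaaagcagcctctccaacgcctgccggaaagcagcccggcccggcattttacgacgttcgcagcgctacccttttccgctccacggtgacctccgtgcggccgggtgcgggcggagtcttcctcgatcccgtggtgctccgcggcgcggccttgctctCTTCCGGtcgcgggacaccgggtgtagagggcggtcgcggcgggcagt
UQCRC1: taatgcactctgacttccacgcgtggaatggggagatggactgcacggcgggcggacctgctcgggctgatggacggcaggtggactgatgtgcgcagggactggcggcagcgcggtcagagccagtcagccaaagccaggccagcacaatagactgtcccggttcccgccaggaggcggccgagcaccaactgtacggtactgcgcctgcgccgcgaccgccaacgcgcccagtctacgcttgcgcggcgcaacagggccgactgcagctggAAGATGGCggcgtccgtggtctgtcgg
COX7B: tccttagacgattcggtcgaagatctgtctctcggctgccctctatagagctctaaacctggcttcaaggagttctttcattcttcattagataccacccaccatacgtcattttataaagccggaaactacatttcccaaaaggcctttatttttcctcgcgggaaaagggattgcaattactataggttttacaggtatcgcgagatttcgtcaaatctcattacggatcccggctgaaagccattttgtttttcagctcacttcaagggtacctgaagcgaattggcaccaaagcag
NDUFB2: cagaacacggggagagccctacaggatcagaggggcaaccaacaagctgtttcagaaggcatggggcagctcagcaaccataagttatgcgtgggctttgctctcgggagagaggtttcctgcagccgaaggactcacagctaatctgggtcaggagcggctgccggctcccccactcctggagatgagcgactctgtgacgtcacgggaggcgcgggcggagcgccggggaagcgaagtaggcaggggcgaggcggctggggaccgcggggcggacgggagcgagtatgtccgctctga
The COX4I1 window holds the ETS letters and the UQCRC1 window the YY1 letters, and the other 2 hold none of the 3 motifs.

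Over the 51 members that matched a RefSeq promoter by current symbol or synonym, counting every listed start, 15 had the ETS motif (29.4%, against 12.2% of 27305 genes), 9 the YY1 motif (17.6%, against 3.52%) and 3 the NRF1 motif (5.88%, against 1.52%). The median anti-LAG3 difference in arm means was 0.167 for the 15 with the ETS motif, of which 7 rose, and 0.114 for the 36 without, of which 12 rose. The median combination slope relative to isotype was -0.0612 with it and -0.0585 without. For YY1 the medians of the anti-LAG3 difference were 0.164 for the 9 with the motif and 0.118 for the 42 without, and for NRF1 they were 0.0452 for the 3 with the motif and 0.137 for the 48 without. The 27305 genes are all those with a listed promoter, expressed here or not, whereas every member passed the filter for testing. The motif shares of expressed genes alone were not counted. A match is a description of these letters and not a site.

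In the authors' deposited tables, which compare 1 library with the 3 isotype libraries, few members passed an adjusted p under 0.05. Members with no adjusted p, which could not pass, numbered 9, 3 and 1 at rising dose of anti-LAG3. They numbered 8, 0 and 0 with anti-PD1 and 0 at each dose of the combination. The shares of genes called that follow count both directions. For anti-LAG3 the authors' deposited tables hold 0, 1 and 2 members up and 0 down at rising dose, namely CYC1 at 0.1 µg/ml and NDUFB2 and COX4I1 at 1 µg/ml, where 0.0666%, 1.24% and 1.43% of the genes in each table were called. For anti-PD1 the authors' deposited tables hold 1, 0 and 0 members up, again CYC1, where 0.549%, 0% and 0.366% of genes were called, and for the combination 0 at each dose, where 0%, 0.179% and 1.67% were. The median member log2 fold change in the authors' deposited tables was 0.0583, 0.149 and 0.184 at rising dose of anti-LAG3, 0.112, 0.0107 and 0.0283 for anti-PD1, and 0.0496, 0.0137 and 0.0539 for the combination.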

How the data were processed

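RNA from 12 co-cultures was sequenced, and the authors deposited raw counts per gene (55782 symbols) with each gene's length in base pairs, per the file headers. The submitters' processing notes list GRCh38, DESeq2, Subread 1.5.2 (the package of featureCounts), STAR 2.5.2b and Trimmomatic 0.36. None of the sources used here gives the strand setting, the annotation release or the treatment of multi-mapping reads, but for 57 of 60 members the length equals that of the exon union in GENCODE 29. Of the members, 23 share over 10% of exon length with another gene and are uncertain to that extent. The labels name polyA RNA and the protocol total RNA, so the selection is not settled. The authors also deposited 9 tables with log2 fold changes, standard errors, p-values and adjusted p-values of 1 antibody library against 3 isotype libraries, per the file headers. Not used were 4 count columns that match no label and 36 per-sample columns of those tables.

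Genes were kept with filterByExpr (minimum count 10), which left 15535, with TMM scaling. Arms were compared in R 4.3.3 with edgeR 4.0.16 (robust quasi-likelihood F test) in a model of arm and dose (6 residual degrees of freedom), and slopes on log10 dose, centred at 0.1 µg/ml, in a model with a slope for each arm (4 residual degrees of freedom). The dispersion came from all 12 libraries together. Benjamini-Hochberg adjustment ran over all genes, and calls needed an adjusted p under 0.05. Both models were tested on simulated data, with 50 genes changed at each size. For the combination slope, 2%, 16%, 48% and 82% of changes of 0.1, 0.2, 0.3 and 0.6 log2 units were recovered. For the anti-LAG3 arm mean, 2%, 28%, 70% and 90% were. Of the unchanged genes, 6 and 11 were called. Among the genes changed, most changes of 0.1 to 0.2 were missed. These rates were not counted for the members alone, and recovery at the members' own counts was not tested. An absent call is therefore not read as an absent difference of that size. Alternatives were DESeq2 and its size factors, no count filter, T over B marker level as covariate, length and GC trends removed by loess, dose left out, and each library left out. The members, lists and rule for named genes were chosen with earlier results of these data known. Named were up to 12 called members by p, the 3 largest differences each way, the highest and lowest level per complex, called genes of the lists, and CD69 and EGR1. COX4I1, UQCRC1, COX7B and NDUFB2 were picked for their promoters, and NDUFB2-AS1 was looked up, after their values were seen. EGR1 had a combination slope relative to isotype of 1.04 (adjusted p = 3.59e-09, edgeR). The replicate numbers of the labels stand for the dose: deviations of libraries that share a dose correlated at -0.0877 to 0.205, and since number and dose are the same variable, a batch shared by number cannot be told apart from dose.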

Additional observations from a re-analysis of the deposited data

Results flagged for a closer look

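The dose slope of NDUFB2 differed between the combination and the anti-PD1 series, by 0.2217 log2 units per 10-fold dose (combination minus anti-PD1; adjusted p = 0.0481 in edgeR's quasi-likelihood test over all genes). Its level was 84.7, 103 and 107 CPM at rising dose of the combination, against 115, 114 and 110 CPM with anti-PD1. The low value is the combination library at 0.01 µg/ml, and over the alternatives the difference was 0.12 to 0.33.

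The dose slope of NDUFS6 differed between the combination and the anti-LAG3 series, by -0.1926 (adjusted p = 0.0452, same test). Its level was 123, 114 and 104 CPM at rising dose of the combination, against 118, 123 and 130 CPM with anti-LAG3. The difference stayed between -0.20 and -0.16 over the alternatives. It was called in 3 of the 12 fits with 1 library left out, as was NDUFB2 in 4 of 12.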

How the results depend on the processing

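Of the 11 counts of called members, that of the combination against isotype in arm means was 0 under every alternative run. The other 10 moved with at least 1 setting, and the cause was not tested. The counts below stand without the share of all genes called in the same fit. With TMM replaced by DESeq2's size factors in edgeR, the count of combination minus anti-LAG3 slopes was 0 (main 1). Without a count filter the counts were 2 for combination minus anti-PD1 means (main 0), 16 for combination minus anti-LAG3 means (5), 1 for anti-LAG3 slopes (0), 8 for anti-PD1 slopes (2), 12 for isotype slopes (7) and 4 for combination minus anti-LAG3 slopes (1). DESeq2 gave 1 for combination minus anti-PD1 means, 6 for combination slopes (13), and 0 for combination minus anti-PD1 and combination minus anti-LAG3 slopes. With T over B marker level as covariate the counts were 0 for anti-LAG3 means (20), 4 for anti-PD1 means (8), 0 for combination minus anti-LAG3 means, 4 for anti-LAG3 slopes, 17 for anti-PD1 slopes, 13 for isotype slopes and 0 for combination minus anti-PD1 slopes (1). With the length trend removed they were 10 for anti-LAG3 means, 4 for anti-PD1 means, 1 for anti-PD1 slopes and 2 for combination minus anti-PD1 slopes, and with the GC trend removed 12 for anti-LAG3 means and 0 for anti-PD1 means.

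With the replicate numbers, which stand for dose, left out as a term (no replicate block), the arm-mean counts were 0 for the combination, 20 for anti-LAG3 and 7 for anti-PD1 against isotype, and 0 and 5 for the combination against anti-PD1 and anti-LAG3, so the block moved none of these 5 counts by over 1.5 times.

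Leaving out each library in turn gave 4 to 28 for anti-LAG3 means, 0 to 12 for anti-PD1 means, 0 to 2 for combination minus anti-PD1 means, 0 to 17 for combination minus anti-LAG3 means, 0 to 17 for combination slopes, 0 to 1 for anti-LAG3 slopes, 0 to 8 for anti-PD1 slopes, 0 to 11 for isotype slopes, and 0 to 2 for the slopes of the combination minus anti-PD1 and minus anti-LAG3. Chosen after seeing the data, leaving out both libraries of like pattern gave 32 for anti-LAG3 means, 17 for anti-PD1 means, 1 for combination minus anti-PD1 means, 19 for combination minus anti-LAG3 means and 0 for the combination, anti-PD1, isotype, combination minus anti-PD1 and combination minus anti-LAG3 slopes. Without subtracting the isotype slope, also chosen after seeing the data, the counts were 2 for the combination and 0 for anti-PD1.

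Values of named members and the summed levels were counted together over the alternatives. Of these, 1620 values kept direction and call, 266 lost the call, 68 gained one and 31 changed sign, none of them called. The 1620 include the arm differences of the summed levels under TMM scaling. Those have no call and moved by less than the SD of the arms. Ranges are over the 12 fits with 1 library left out, named by arm and dose in µg/ml, and both means the libraries of like pattern. In means of the combination against isotype, the sign changed for NDUFC1 (-0.212 without combination 0.01 to 0.0227 without combination 1), NDUFA3 (-0.176 without combination 0.01 to 0.0735 without isotype 1) and NDUFV2 (-0.129 without isotype 0.01 to 0.0336 without isotype 1, 0.0524 without both). In means of anti-LAG3 against isotype, the sign changed for COX7B (-0.205 without isotype 0.01 to 0.0759 without isotype 1, 0.056 without both). In means of the combination against anti-LAG3, the sign changed for COX7B (-0.0196 without combination 0.01 to 0.216 without combination 1, -0.00428 without both). In slopes of anti-LAG3 against isotype, the sign changed for NDUFV2 (-0.297 without anti-LAG3 0.01 to 0.0176 without anti-LAG3 1), UQCR10 (-0.309 without isotype 0.01 to 0.0111 without isotype 1, 0.0102 without both) and NDUFB11 (-0.32 without isotype 0.01 to 0.0279 without isotype 1, 0.027 without both). In slopes of anti-PD1 against isotype, the sign changed for NDUFB6 (-0.0584 without anti-PD1 1 to 0.175 without anti-PD1 0.01, -0.0329 without both) and NDUFC2 (-0.14 without anti-PD1 1 to 0.324 without anti-PD1 0.01). In slopes of isotype, the sign changed for NDUFB6 (-0.15 without isotype 0.01 to 0.0411 without isotype 1, 0.0422 without both). In slopes of the combination against anti-PD1, the sign changed for NDUFA7 (-0.761 without combination 1 to 0.298 without combination 0.01, 7.68e-04 with the marker covariate, 0.302 without both) and NDUFC2 (-0.36 without anti-PD1 0.01 to 0.104 without anti-PD1 1). In slopes of the combination against anti-LAG3, the sign changed for NDUFA7 (-0.791 without combination 1 to 0.269 without combination 0.01, 0.276 without both).

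The members' median mean count was 2442.5, while NDUFA7 averaged 97.6. Each arm and dose had 1 library, and the slope model left 4 residual degrees of freedom. Strand and multi-mapping settings are not known, so members that share exons stay uncertain.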
